A study of Homo sapiens with 13 samples.

Results

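Inflammatory cytokines and the prostaglandin enzyme PTGS2 were followed in human breast cancer xenografts, as 10 genes taken by symbol: CCL2, IL1B, IL1A, CSF3, CXCL1, CXCL2, CXCL8, IL6, PTGS2 and LIF. All 10 were among the 57820 gene identifiers of the bulk table, and 7 were among the 15005 genes of the single-cell table, where CCL2, IL1A and CSF3 had no row. Each tumour grew from 1000000 cells of BM1, a line derived from human MDA-MB-231 breast cancer cells for its spread to bone, injected into a mammary fat pad. The hosts were athymic nude mice, which lack T cells and keep myeloid cells. Bulk RNA came from 5 tumours of cells overexpressing human KMT5C, a histone H4 lysine methyltransferase, and from 5 tumours of cells with the empty pLV-EF1a-IRES-Hygro vector (CTRL), all taken 4 weeks after implantation. Both bulk lines were stable populations made by lentiviral transduction and selection, and the labels do not say whether they were clones. Single cells came from 3 tumours of cells expressing RKIP with the mutation S153E and from 3 vector-control tumours (CTRL), all taken 3 weeks after implantation, with 1 tumour of each kind in each of 3 experiments. These suspensions were depleted of mouse cells and of dead cells before loading on a Fluidigm C1 HT chip. RefSeq places IL1A and IL1B on chromosome 2, CXCL1, CXCL2 and CXCL8 on chromosome 4, CCL2 and CSF3 on chromosome 17, PTGS2 on 1, IL6 on 7 and LIF on 22. The ages of the mice are not given in the sources used here.

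The 10 genes belong to one of the best known output programmes of tumour and stromal cells. Interleukin-1, as IL1A or IL1B, binds its receptor, the kinase cascade below it frees NF-kB, and NF-kB turns on chemokines (CCL2, CXCL1, CXCL2, CXCL8), growth factors of blood cells (CSF3), cytokines that signal through STAT3 (IL6, LIF) and the inducible cyclooxygenase PTGS2. In breast cancer cells of the MDA-MB-231 lineage these genes are known for drawing in monocytes and neutrophils, and PTGS2 and IL6 for their part in metastasis. Their transcripts are short-lived, since most carry AU-rich elements that decay factors recognise.

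The bulk libraries held 37050750 to 49536763 counts in KMT5C tumours and 41665268 to 48003278 in CTRL tumours, and the single-cell tumours summed to 20085751 to 34568923 counts in RKIP and 19516061 to 29793814 in CTRL tumours. KMT5C averaged 122.9 ± 20.2 CPM (library-scaled counts per 1000000) in KMT5C tumours and 8.86 ± 1.52 CPM in CTRL tumours (SD, n = 5 each), and the rat Pebp1 transcript of the RKIP construct averaged 114.4 ± 97.2 CPM in RKIP tumours and 0.301 ± 0.304 CPM in CTRL tumours (SD, n = 3 each). Endogenous PEBP1 averaged 274.5 ± 4.51 CPM in RKIP tumours and 322.1 ± 37.6 CPM in CTRL tumours and was not called. All 8 positive markers of the parental line were present in both tables, led by VIM in bulk, while ESR1, PGR and CDH1 summed to 0.270 to 0.517 CPM in KMT5C and 0.1303 to 0.426 CPM in CTRL bulk tumours.

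In the KMT5C tumours 5 of the 10 genes fell and none rose (edgeR's quasi-likelihood test, Benjamini-Hochberg adjusted p under 0.05 over all 17947 genes tested). The genes that fell were CCL2, IL1B, CSF3, CXCL1 and PTGS2, by 1.69 to 4.33 times, and IL1A, CXCL2, CXCL8, IL6 and LIF were not called. Of all genes tested, 2.96% were called in either direction and 1.9% were called lower. The 10 genes were chosen with earlier results of these tumours known, so their count is a description and no independent evidence. DESeq2, another count model, called the same 5 of the 10 and 5.71% of the genes it tested. In bulk RNA, fewer cells that make a transcript and less transcript per cell cannot be told apart.

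**Figure D1:**
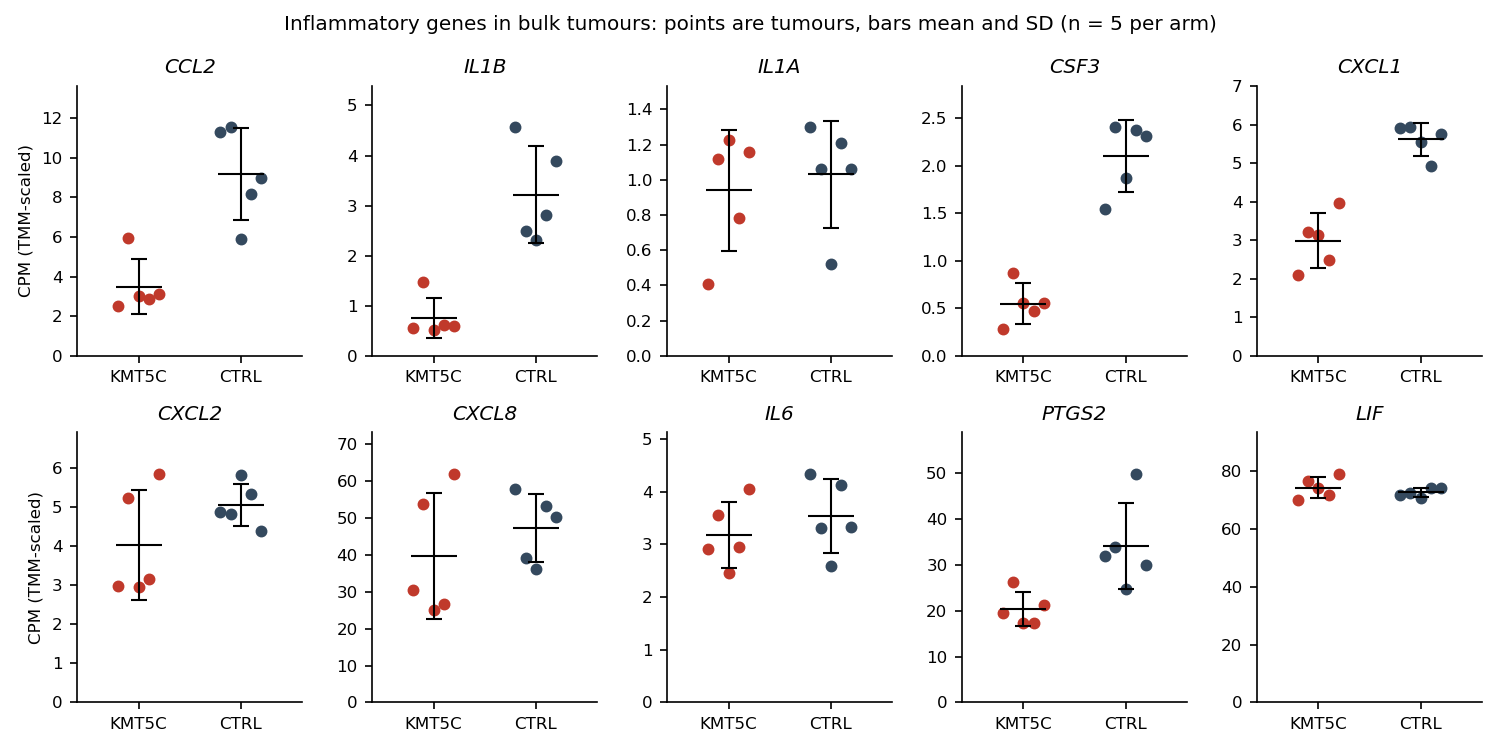
Level of each gene in the bulk tumours, in CPM on the y axis from 0, with the KMT5C tumours on the left and the CTRL tumours on the right of each panel. Points are tumours and bars are the mean and SD of 5. The arms do not overlap for IL1B, CSF3 and CXCL1, overlap by 1 tumour each for CCL2 and PTGS2, and overlap for the other 5, of which LIF lies between 70.0 and 79.2 CPM in all 10 tumours.

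IL1B, the secreted form of interleukin-1 that needs cleavage before release, showed the largest fall of the 10. IL1B (ENSG00000125538.7) had 0.560, 1.48, 0.519, 0.620 and 0.603 CPM in KMT5C tumours 807, 809, 816, 820 and 823, against 4.57, 2.49, 2.32, 2.80 and 3.88 CPM in CTRL tumours 801, 803, 804, 813 and 815. Every KMT5C tumour lay below every CTRL tumour, although tumour 809 stood well above the other KMT5C tumours. This gave a log2 fold change of -2.11 (SE 0.28, edgeR adjusted p = 7.04e-04), from raw counts of 25 to 54 in KMT5C and 107 to 225 in CTRL libraries.

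IL1A, the partner that signals through the same receptor and can act while bound to the cell, was not called. IL1A (ENSG00000115008.5) ranged from 0.409 to 1.22 CPM in KMT5C tumours and from 0.521 to 1.30 CPM in CTRL tumours, and the arms overlapped over most of their range. Its log2 fold change was -0.14 (SE 0.29, edgeR adjusted p = 0.862), on 19 to 59 counts per KMT5C library and 24 to 64 per CTRL library. Whether the change of IL1B differed from that of IL1A was not tested.

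CCL2, which attracts monocytes, fell the most among the chemokines. CCL2 (ENSG00000108691.5) had 2.52, 5.96, 3.03, 2.85 and 3.13 CPM in KMT5C tumours 807, 809, 816, 820 and 823, against 11.3, 11.6, 5.93, 8.19 and 8.97 CPM in CTRL tumours 801, 803, 804, 813 and 815. The arms met at 1 point only, where KMT5C tumour 809 reached the level of CTRL tumour 804. CCL2 had a log2 fold change of -1.40 (SE 0.22, edgeR adjusted p = 0.0022), and without KMT5C tumour 809 it was -1.66.

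CSF3, the growth factor that drives the making of neutrophils, was low in every library and fell the second most. CSF3 (ENSG00000108342.8) had 0.280, 0.875, 0.560, 0.475 and 0.557 CPM in KMT5C tumours 807, 809, 816, 820 and 823, against 1.54, 2.41, 1.87, 2.37 and 2.31 CPM in CTRL tumours 801, 803, 804, 813 and 815. All KMT5C tumours were below all CTRL tumours. Its log2 fold change was -1.95 (SE 0.25, edgeR adjusted p = 4.48e-04), and it rests on 13 to 32 counts per KMT5C library and 76 to 111 counts per CTRL library.

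The 3 neutrophil-attracting CXC chemokines gave unlike results. CXCL1 (ENSG00000163739.4), a ligand of the receptor CXCR2, had 2.11, 3.23, 3.13, 2.50 and 3.97 CPM in KMT5C tumours 807, 809, 816, 820 and 823, against 5.93, 5.94, 5.56, 4.93 and 5.75 CPM in CTRL tumours 801, 803, 804, 813 and 815. The CTRL tumours were close together, and the arms did not overlap. The log2 fold change was -0.91 (SE 0.15, edgeR adjusted p = 0.0030). IL1B, CSF3 and CXCL1 were the 3 genes of the 10 with every KMT5C tumour below every CTRL tumour, a pattern that 3.26% of the genes tested showed.

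CXCL2, a close relative of CXCL1 with the same receptor, was not called. CXCL2 (ENSG00000081041.8) had 2.97, 5.22, 2.95, 3.14 and 5.84 CPM in KMT5C tumours 807, 809, 816, 820 and 823, against 4.87, 4.81, 5.82, 5.31 and 4.39 CPM in CTRL tumours 801, 803, 804, 813 and 815. KMT5C tumours 809 and 823 lay within the CTRL range or just above it and the other 3 lay below it. CXCL2 had a log2 fold change of -0.33 (SE 0.19, edgeR adjusted p = 0.406).

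CXCL8, the ligand of both CXCR1 and CXCR2 that mice lack, split the KMT5C tumours in the same way. CXCL8 (ENSG00000169429.6) had 30.5, 53.9, 25.1, 26.7 and 62.0 CPM in KMT5C tumours 807, 809, 816, 820 and 823, against 57.7, 39.2, 36.1, 53.2 and 50.2 CPM in CTRL tumours 801, 803, 804, 813 and 815. KMT5C tumours 807, 816 and 820 were below every CTRL tumour, tumour 809 was above 4 of the 5, and tumour 823 was above all of them. The log2 fold change was -0.26 (SE 0.26, edgeR adjusted p = 0.695). CXCL1, CXCL2 and CXCL3 have similar coding sequences, which were not compared here. Reads may be split among them, so the value of each alone is uncertain.

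PTGS2, which makes the precursor of the prostaglandins, fell less and less evenly. PTGS2 (ENSG00000073756.7) had 19.5, 26.2, 17.3, 17.2 and 21.2 CPM in KMT5C tumours 807, 809, 816, 820 and 823, against 32.0, 33.9, 24.9, 49.9 and 30.1 CPM in CTRL tumours 801, 803, 804, 813 and 815. KMT5C tumour 809 lay above CTRL tumour 804, and CTRL tumour 813 stood above the other CTRL tumours. The log2 fold change was -0.75 (SE 0.16, edgeR adjusted p = 0.0158). PTGS2 missed the threshold without KMT5C tumour 807 (-0.73, edgeR adjusted p = 0.0545), without 816 (-0.70, 0.0506), without 820 (-0.70, 0.0623), and with no filter on low counts (-0.76, 0.115).

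The 2 cytokines that signal through STAT3 were not called. IL6 (ENSG00000136244.7) ranged from 2.45 to 4.06 CPM in KMT5C tumours and from 2.58 to 4.34 CPM in CTRL tumours, with a log2 fold change of -0.16 (SE 0.17, edgeR adjusted p = 0.705). LIF (ENSG00000128342.4), which signals through the shared receptor chain IL6ST, ranged from 70.0 to 79.2 CPM in KMT5C tumours and from 70.8 to 74.3 CPM in CTRL tumours. LIF had the smallest error of the 10, and its log2 fold change was 0.03 (SE 0.059, edgeR adjusted p = 0.842).

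**Figure D2:**
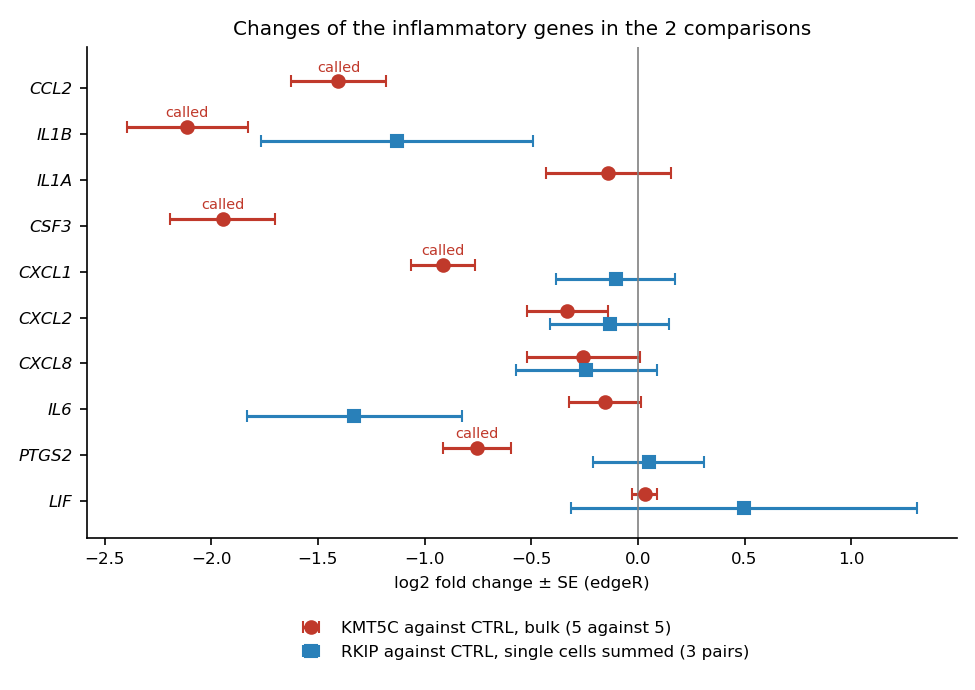
Log2 fold change (x axis) of each gene, as the edgeR estimate with its SE. Circles are KMT5C against CTRL bulk tumours (5 against 5), squares are RKIP against CTRL tumours with single cells summed (3 pairs), and "called" marks an adjusted p under 0.05. The 5 called genes lie between -2.11 and -0.75 in bulk, and none of the 7 genes measured in single cells is called.

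Markers of some other cell types differed between the same arms, where 2.96% of all genes tested were called. No marker of fibroblasts (6 tested), keratinocytes (4) or adipocytes (3) was called, and 2 of 8 tumour-cell markers were called higher in KMT5C tumours. Skeletal muscle markers were higher in KMT5C tumours (6 of 12 tested were called higher), with a summed level of 41.4 to 72.7 CPM in KMT5C tumours and 27.0 to 36.2 CPM in CTRL tumours. With their mean level as a covariate, CSF3 was the only one of the 10 still called (-2.36, edgeR adjusted p = 0.0406), and 21 genes were called in the whole table. The estimates of the others under that covariate were -1.82 for CCL2, -2.45 for IL1B, -0.81 for CXCL1 and -1.11 for PTGS2, so that only that of CXCL1 was smaller than without it.

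Leukocyte markers summed to 88.1 to 120.4 CPM in KMT5C tumours and 121.6 to 164.8 CPM in CTRL tumours, with 1 of 3 tested called lower. LAPTM5 made up most of that sum, and CD53, CD52, TYROBP, CD3E and MS4A1 each averaged under 0.1 CPM. LAPTM5 was also counted in the single cells depleted of mouse cells, at 94.1 to 113.0 CPM in RKIP and 80.4 to 125.7 CPM in CTRL tumours. With the leukocyte marker level as a covariate CCL2, IL1B, CSF3 and CXCL1 were still called and PTGS2 was not (-0.40, edgeR adjusted p = 0.209). Macrophage markers summed to 10.8 to 16.1 CPM in KMT5C and 15.7 to 20.7 CPM in CTRL tumours (1 of 4 called lower), with C1QA, C1QB and CD163 each under 0.1 CPM. All 7 neutrophil markers averaged under 0.1 CPM, and endothelial markers summed to 41.3 to 66.3 CPM in KMT5C and 57.9 to 84.2 CPM in CTRL tumours (1 of 6 called lower). The sources used here do not say whether mouse reads were removed. Neither the summed muscle markers nor the summed leukocyte markers overlapped between the arms. The covariates were not these sums but unweighted means of the markers' log2 levels, and their overlap between the arms was not examined. No covariate fit is therefore read as telling marker level and construct apart, and the part of host cells in these falls was not tested.

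Few genes of the surrounding pathway were called in the KMT5C tumours. Of 90 tests in 8 lists of related genes, 3 were called, all lower, a share near the 2.96% of all genes. No gene was called among 12 other inflammatory ligands (median log2 fold change -0.09), 13 receptors and antagonists (0.09), 16 genes of NF-kB signalling (0.01), 15 NF-kB feedback and target genes (-0.10), 9 STAT3 genes (0.05) or 8 AU-rich decay factors (-0.01), against a median of 0.0023 over all genes. With the leukocyte covariate TRAF1, an adaptor of tumour necrosis factor receptors, was called higher (0.46, edgeR adjusted p = 0.0276), and without CTRL tumour 813 so were NFKBIZ (0.38, 0.0376), a nuclear partner of NF-kB, and ZFP36L1 (0.37, 0.0428), an AU-rich decay factor. At an unadjusted p under 0.05 these 6 lists held 2, 2, 1, 5, 1 and 3 genes, against 3010 of all 17947 genes tested.

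The 3 called genes stood in the lists of interleukin-1 processing and of prostaglandin genes. CASP1, the protease that cleaves the IL1B precursor, averaged 1.38 ± 0.277 CPM in KMT5C tumours and 3.49 ± 0.573 CPM in CTRL tumours (SD, n = 5 each) and fell, with a log2 fold change of -1.34 (SE 0.17, edgeR adjusted p = 4.48e-04). CASP4, the inflammatory caspase that senses bacterial lipopolysaccharide, averaged 43.7 ± 5.16 CPM in KMT5C and 58.0 ± 2.46 CPM in CTRL tumours and fell by 0.41 on the log2 scale (SE 0.080, adjusted p = 0.0096). HPGD, the enzyme that inactivates prostaglandin E2, averaged 1.34 ± 0.222 CPM in KMT5C and 2.33 ± 0.436 CPM in CTRL tumours and fell by 0.80 (SE 0.18, adjusted p = 0.0211). The lists had medians of -0.11 over 8 and -0.05 over 9 genes tested. HPGD missed the threshold without CTRL tumour 804 (-0.73, edgeR adjusted p = 0.0534), without CTRL tumour 815 (-0.77, 0.0523) and without KMT5C tumour 820 (-0.74, 0.0623), and CASP4 missed it with the leukocyte covariate (-0.29, 0.0973). None of the 3 was called with the muscle covariate (edgeR adjusted p = 0.228 for CASP1, 0.467 for CASP4 and 0.633 for HPGD).

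In the RKIP tumours none of the 7 measured genes was called when the counts of cells were summed per tumour. The fit called 1 of 14528 genes (0.00688%), the rat Pebp1 transcript of the construct, and DESeq2 called 0 of the 7 against 0.463% of the genes it tested. At an unadjusted p under 0.05, 1 of the 7 (IL6) and 582 genes in all passed in edgeR. With 3 pairs a miss is no sign that levels were alike. RKIP cells filled chip columns 11 to 20 and CTRL cells columns 1 to 10, so the side of the chip and the construct cannot be told apart. No gene was called in any of the 8 related lists (85 tests).

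IL1B was lower in the RKIP tumour of every pair without passing the test. IL1B had 3.03, 4.37 and 2.63 CPM in RKIP tumours 1, 2 and 3, against 3.40, 9.02 and 11.97 CPM in CTRL tumours 1, 2 and 3. IL1B had a log2 fold change of -1.13 (SE 0.64, edgeR adjusted p = 0.973). Without experiment 3 the estimate was -0.61. Of the 325 counts in CTRL tumour 3, a single cell held 245.

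The direction of the chemokines differed between pairs. CXCL2 had 135.9, 201.0 and 108.9 CPM in RKIP tumours 1, 2 and 3, against 159.6, 126.8 and 192.4 CPM in CTRL tumours 1, 2 and 3, a log2 fold change of -0.13 (SE 0.28, edgeR adjusted p = 0.984). CXCL1 had 40.7, 71.2 and 41.8 CPM in RKIP tumours, against 47.5, 48.5 and 64.9 CPM in CTRL tumours (-0.10, SE 0.28, adjusted p = 0.990). CXCL8 had 33.5, 48.3 and 23.3 CPM in RKIP tumours, against 34.3, 37.4 and 48.9 CPM in CTRL tumours (-0.24, SE 0.33, adjusted p = 0.973). All 3 were lower in the RKIP tumour of pairs 1 and 3 and higher in that of pair 2, and their estimates changed sign without experiment 3.

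PTGS2 and LIF were highest in experiment 2 in both arms. PTGS2 had 21.5, 36.4 and 25.4 CPM in RKIP tumours 1, 2 and 3, against 20.3, 30.8 and 28.6 CPM in CTRL tumours 1, 2 and 3 (log2 fold change 0.05, SE 0.26, edgeR adjusted p = 0.995). LIF had 0.180, 7.33 and 1.23 CPM in RKIP tumours, against 0.139, 3.19 and 1.33 CPM in CTRL tumours (0.50, SE 0.81, adjusted p = 0.981). Leaving out 1 experiment gave 0.10 to 0.83 for LIF. The order of the experiments for LIF was the same in both arms, from 6 and 4 counts in the tumours of experiment 1 to 146 and 63 counts in those of experiment 2.

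Most cells had no count of most of these genes. After each cell was thinned to 20000 counts (1481 of 1568 cells were deep enough), 35.2% of cells had none of the 7 genes, 33.1% had 1, 18.2% had 2 and 13.4% had 3 or more, with a maximum of 5. CXCL2 was the most often counted, in 40.4 ± 6.45% of cells in RKIP tumours and 44.8 ± 11.9% in CTRL tumours (SD, n = 3 each). CXCL8 was counted in 22.3 ± 6.22% and 22.1 ± 5.204% of RKIP and CTRL cells, CXCL1 in 19.7 ± 7.34% and 20.5 ± 8.46%, and PTGS2 in 18.7 ± 6.73% and 16.7 ± 3.73%. IL6 was counted in 5.01 ± 2.12% of RKIP and 6.78 ± 1.73% of CTRL cells and IL1B in 2.92 ± 0.351% and 3.85 ± 1.64%.

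LIF was counted in 0.385%, 3.52% and 2.07% of cells in RKIP tumours 1, 2 and 3. In CTRL tumours 1, 2 and 3 it was counted in 0%, 1.63% and 2.11% of cells, where 0 of 241 cells allows a share of up to 1.24% (3 counts of the total, counting error only), and the exact two-sided 95% interval plotted for that tumour ends at 1.52%. For none of the 7 genes did the share differ in 1 direction in all 3 pairs. The exact two-sided sign-flip test gave p = 0.5 for IL6, PTGS2 and LIF and p = 0.75 for the other 4 (adjusted p = 0.75 for all 7), where 3 pairs cannot go below 0.25. No cell type that should lack these genes was at hand as a background. Without thinning the shares were higher for all 7, and PTGS2 was counted in 25.6%, 40.5% and 30.9% of cells in RKIP tumours 1, 2 and 3, against 19.4%, 33.3% and 27.5% in CTRL tumours 1, 2 and 3. There the RKIP tumour was higher in 3 of 3 pairs (exact two-sided sign-flip p = 0.25, adjusted p = 1 over the 7 genes). Unthinned means in RKIP and CTRL tumours were 56.5% and 57.2% for CXCL2, 37.8% and 35.5% for CXCL8, 30.6% and 30.4% for CXCL1, 9.85% and 10.97% for IL6, 5.28% and 6.04% for IL1B, and 4.36% and 3.60% for LIF.

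**Figure D3:**
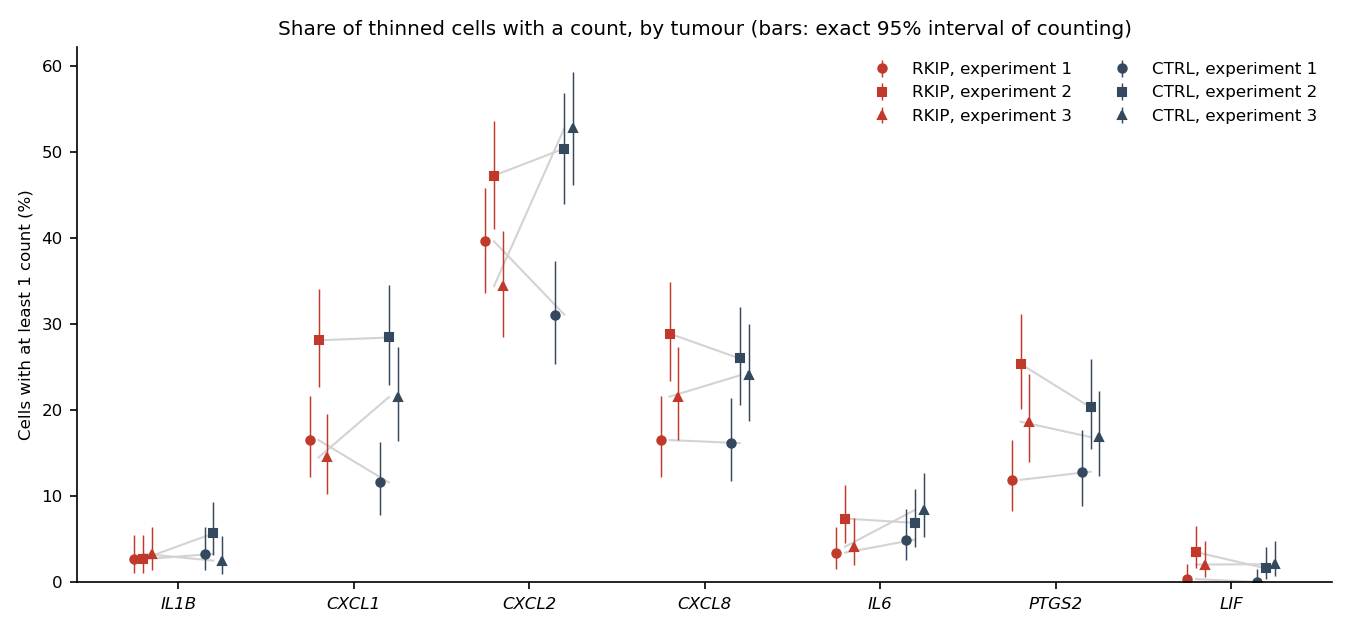
Share of thinned cells with at least 1 count of each gene, in percent on the y axis, with RKIP tumours left of CTRL tumours and grey lines joining the tumours of 1 experiment. Symbols mark experiments and bars are exact 95% intervals of counting. CXCL2 lies between 31.1% and 52.7% and the lines of each gene run in both directions.

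The share of a tumour's counts that lay in 1 cell differed between genes. The highest cell of a tumour held a median of 8.53% of its CXCL2 counts, 11.7% of CXCL8, 12.2% of PTGS2 and 15.7% of CXCL1, over 6 tumours. For LIF, IL1B and IL6 the medians were 31.0%, 39.6% and 50.6%. LIF had 6 counts in all in RKIP tumour 1 and 4 in CTRL tumour 1, and IL1B was counted in 8 cells of RKIP tumour 1. The median over all genes, given next, was not matched for a gene's number of counts. Over all genes of the table the median in each tumour was 14.4% to 22.9% in RKIP and 14.6% to 24.8% in CTRL tumours, so the first 4 genes lay near or below that level and the last 3 above it. Among single cells, the highest of all for CXCL2 (513 counts, RKIP tumour 1) had 1 count of CXCL1 and none of CXCL8, and the 2 highest for CXCL1 (295 and 289 counts, CTRL tumour 1) had none of CXCL2. Another cell of RKIP tumour 1 held 400 counts of CXCL2, 176 of CXCL1 and 151 of CXCL8.

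IL6 was the extreme case, and most of its counts lay in 1 row of the chip. A single cell held 1652 of the 1766 IL6 counts of RKIP tumour 2, and a single cell held 1704 of the 1810 counts of CTRL tumour 2. In CTRL tumour 1 a single cell held 424 of 593 counts, and in RKIP tumours 1 and 3 and CTRL tumour 3 the highest cells held 33, 27 and 40. In those cells of tumours RKIP 2 and CTRL 2 IL6 made up 3.77% and 4.25% of all counts of the cell. The cell of CTRL tumour 2 had no count of the other measured genes. That of RKIP tumour 2 had 9 counts of PTGS2, 3 of CXCL2 and 1 of CXCL8, and none of CXCL1, IL1B and LIF. All 3 cells with over 400 IL6 counts carried chip row 9 in their names.

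Row 9 held 51 of 1568 cells (3.25%) and 87.1% of all IL6 counts. IL6 was counted in 43.1% of the cells of that row (22 of 51, exact 95% interval 29.3 to 57.8%) and in 9.36% of the other cells (142 of 1517, 7.94 to 10.9%), without thinning. In the row with most counts of a gene, IL6 ranked 6 of 15005 genes by its share, where the median over genes was 12.95%. IL6 gathered there in both arms, with 1656 and 30 counts in RKIP tumours 2 and 3, and 474, 1757 and 107 counts in CTRL tumours 1, 2 and 3, whereas RKIP tumour 1 had 0 counts in its 10 cells there. Other genes collected in other rows, such as CHCHD2P2 in row 2 (98.1%) and HIST1H2BK in row 7 (97.1%). Median counts per cell were 43427 in row 9 and 21053 to 183716.5 in the 28 other rows with cells. What gathers IL6 in this row was not tested.

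The summed IL6 level turned on that row. With all cells IL6 had 3.33, 88.7 and 3.40 CPM in RKIP tumours 1, 2 and 3, against 20.6, 91.7 and 8.88 CPM in CTRL tumours 1, 2 and 3, a log2 fold change of -1.33 (SE 0.50, edgeR adjusted p = 0.973). Leaving out 1 experiment gave -2.005 to -0.67. Without row 9, in a fit added after these counts had been seen, the log2 fold change was -0.13 (SE 0.74, adjusted p = 0.996). The plain CPM without the row was 3.27, 5.53 and 2.44 in RKIP tumours and 4.06, 2.76 and 5.24 in CTRL tumours, with no cell above 47 counts. For IL1B the fullest row was row 8, with 39.4% of the counts, and for CXCL1, CXCL2, CXCL8, PTGS2 and LIF it held 7.87% to 23.8%.

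**Figure D4:**
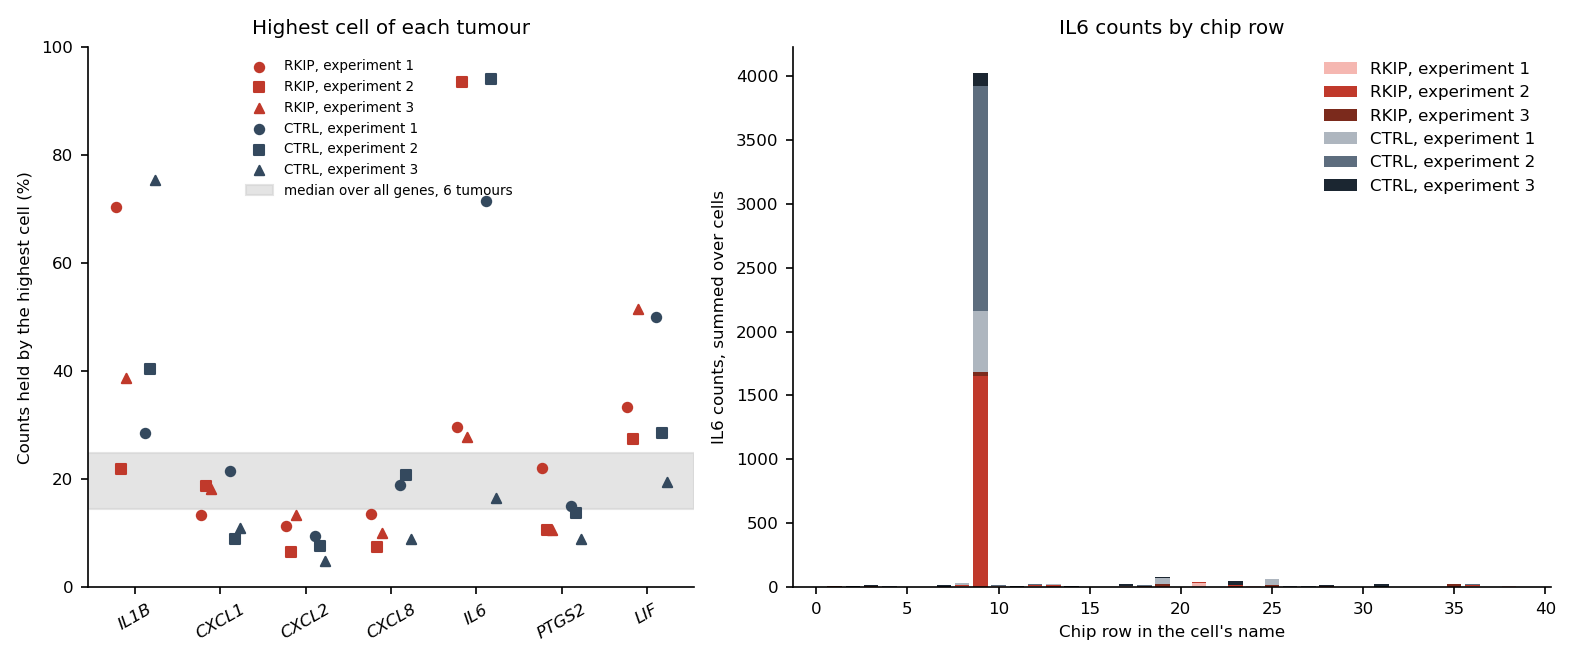
Left, percent of a tumour's counts held by its highest cell (y axis), for RKIP (left of each pair) and CTRL tumours, with the range over tumours of the median over all genes shaded. Right, IL6 counts summed over cells by the chip row in the cell's name, stacked by tumour. IL6 reaches 93.5% in RKIP tumour 2 and 94.1% in CTRL tumour 2, and row 9 holds 4024 of 4618 IL6 counts.

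CXCL1, CXCL2 and CXCL8 were counted together in the same cells. In thinned cells CXCL2 and CXCL8 were both counted in 213 cells, where the product of their shares in each tumour gives 144.4, a ratio of 1.48. CXCL1 and CXCL2 shared 193 cells against 134.0 (1.44), and CXCL1 and CXCL8 shared 115 against 70.5 (1.63). All 3 pairs lay above the product in 6 of 6 tumours. All 3 genes were counted in 93 cells, against 32.3 from the product of the 3 shares. Reads may be split between CXCL1 and CXCL2, as said for bulk. The part of that in the cells they share was not tested. The mean Spearman correlation over cells within a tumour was 0.27 for CXCL2 with CXCL8 (range over tumours 0.09 to 0.34), 0.26 for CXCL1 with CXCL2 (0.17 to 0.34) and 0.21 for CXCL1 with CXCL8 (0.10 to 0.33), over 237 to 260 cells a tumour that share a library and a chip.

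PTGS2 gave different ratios with the 3 chemokines. PTGS2 and CXCL8 shared 88 cells against 61.3 from the product (ratio 1.44, above it in 6 of 6 tumours, mean rho 0.12), and PTGS2 and CXCL1 shared 73 against 56.4 (1.29, 5 of 6, mean rho 0.07). PTGS2 and CXCL2 shared 123 against 114.4 (1.07, 4 of 6, mean rho 0.03). Over the 21 pairs compared, 4 were above the product in every tumour, and the difference between pairs was not tested. Correlations of this size in sparse counts are no finding on their own.

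IL6 and IL1B were counted in few cells, and their pairs with the chemokines hold small numbers. Pairs of IL6 with CXCL1, CXCL2 and CXCL8 held 22, 49 and 24 cells against 18.8, 38.8 and 20.3 from the product, with mean correlations of 0.03 to 0.09. Pairs of IL1B with CXCL1, CXCL2 and CXCL8 held 17, 28 and 17 cells against 10.49, 21.5 and 11.3, and none of these 6 pairs was above the product in all 6 tumours. IL1B and IL6 shared 9 cells against 2.97, from 50 and 87 cells in all. LIF, in 24 thinned cells, was never counted with IL1B and shared 5 to 11 cells with CXCL1, CXCL2, CXCL8 and PTGS2. Without chip row 9 the pairs of IL6 with CXCL1, CXCL2 and CXCL8 held 22, 42 and 19 cells. The product then gave 14.6, 29.8 and 15.5, and the mean correlations were 0.07, 0.11 and 0.04.

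**Figure D5:**
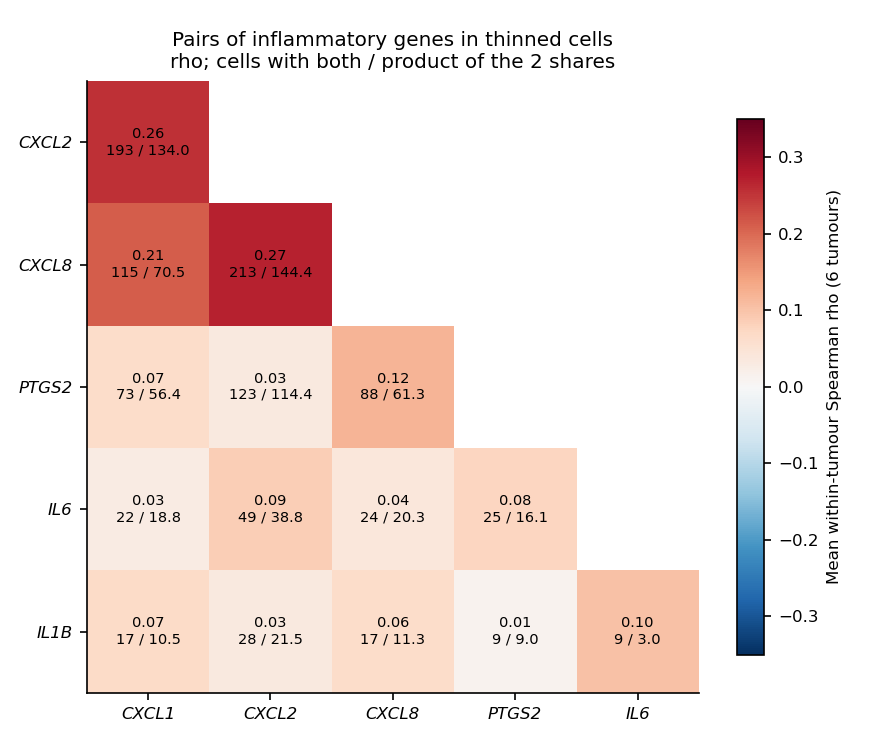
Pairs of 6 of the genes in thinned cells. Colour and the upper number in a square give the Spearman correlation over cells within a tumour, averaged over 6 tumours, and the lower numbers give the cells with both genes and the number that the product of the shares gives. The squares of CXCL1, CXCL2 and CXCL8 reach 0.21 to 0.27 and the other 12 lie between 0.01 and 0.12.

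The upstream DNA of the 3 chemokines and of IL6 is shown because these genes are known NF-kB targets and the chemokines were counted together. The stretches run from base -130 to base -1 before the start of the gene, in RefSeq's promoter table (build GRCh38.p14), which matched 7 of the 10 genes and not CCL2, CSF3 or LIF. They are written 5′ to 3′ along the gene's strand in lower case, and capitals mark each match to GGNNTTTCC, a form of the NF-kB site, searched on both strands. CXCL1 lies at chr4:73869263-73869392 on the plus strand, CXCL2 at chr4:74099196-74099325 on the minus strand, CXCL8 at chr4:73740439-73740568 on the plus strand and IL6 at chr7:22727070-22727199 on the plus strand.
CXCL1: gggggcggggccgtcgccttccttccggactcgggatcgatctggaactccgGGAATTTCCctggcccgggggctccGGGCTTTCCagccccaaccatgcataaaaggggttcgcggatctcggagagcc
CXCL2: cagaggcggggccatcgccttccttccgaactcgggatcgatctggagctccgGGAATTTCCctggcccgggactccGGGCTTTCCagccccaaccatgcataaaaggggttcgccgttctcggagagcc
CXCL8: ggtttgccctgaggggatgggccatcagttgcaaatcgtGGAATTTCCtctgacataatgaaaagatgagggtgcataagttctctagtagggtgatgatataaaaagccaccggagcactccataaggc
IL6: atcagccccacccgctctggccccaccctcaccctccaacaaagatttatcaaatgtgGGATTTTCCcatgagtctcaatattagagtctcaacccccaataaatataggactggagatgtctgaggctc

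CXCL1 and CXCL2 each held 2 matches, starting at -78 and -53 in CXCL1 and at -77 and -53 in CXCL2, while CXCL8 held 1 at -91 and IL6 held 1 at -72. The motif was picked after the sequences had been seen, and 6.26% of 35116 promoters (250 bases before to 50 after the start) hold it. No match was found in the windows of IL1B, IL1A and PTGS2, which says only that these letters are not there. In a global alignment CXCL1 and CXCL2 had 121 identical bases, 8 different bases and 2 gaps over 130 bases each (92.4% identity), against 45.8% for CXCL1 with CXCL8 and 50.7% for CXCL1 with IL6. TATAAA was found in CXCL8 at -31, in PTGS2 at -32 and in 1 of the 2 IL1A windows at -239 (in 11.5% of promoters), and TGANTCA, the AP-1 site, in CXCL8 at -137 and in both IL1A windows (in 7.71%).

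The genes most like each of the 3 chemokines across cells were again chemokines, apart from NFKBIA for CXCL2. Likeness was the mean within-tumour Spearman correlation over the 6 tumours, among 10084 genes counted in at least 60 thinned cells. CXCL3, a further CXCR2 ligand, came first for CXCL1 (mean rho 0.26) and CXCL2 (0.35) and second for CXCL8 (0.26). For CXCL2 the second was NFKBIA (0.28), the NF-kB inhibitor that NF-kB itself induces, and for CXCL8 the first was CXCL2. Of CXCL1's list the others were CXCL2 and CXCL8, and for CXCL8 the remaining gene was CXCL1. The 99th percentile over genes was 0.08 for CXCL1, 0.10 for CXCL2 and 0.09 for CXCL8. Reads split among the similar CXCL1, CXCL2 and CXCL3 may add to the likeness of these 3, which was not tested.

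PTGS2 and IL6 had no partner as close. For PTGS2 the 3 nearest genes were BMP2, a bone morphogenetic protein (0.14), ARFGEF3 (0.12) and FTL, the ferritin light chain (0.12), and CXCL8 stood at rank 5. For IL6 they were IFT140 (0.15), USP28 (0.14) and MANEAL (0.13), with the correlation of IFT140 running from -0.06 to 0.35 over tumours. Without chip row 9 the 3 genes stayed the same for each chemokine, while HDX took the place of USP28 for IL6 and KLF6 and SOX4 took those of ARFGEF3 and FTL for PTGS2. In the IL6 ranking, leaving out row 9 moved CXCL2 from rank 50 to rank 10 and CXCL1 from 2101 to 317. CXCL8 went the other way, from 1372 to 1539, as did PTGS2, from 124 to 1064. IL1B and LIF were counted in fewer than 60 thinned cells and were not ranked.

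The levels of the CTRL tumours differed widely between the tables, which were scaled apart and cannot be tested against each other. CXCL2 had 126.8 to 192.4 CPM in the single-cell CTRL tumours and 4.39 to 5.82 CPM in the bulk CTRL tumours, and CXCL1 had 47.5 to 64.9 CPM and 4.93 to 5.94 CPM. LIF went the other way, with 0.139 to 3.19 CPM in single cells and 70.8 to 74.3 CPM in bulk, while CXCL8 had 34.3 to 48.9 CPM and 36.1 to 57.7 CPM. Vector, week of harvest, dissociation, depletion of mouse and dead cells and library chemistry all differed between the tables and cannot be told apart.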

How the data were processed

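Bulk RNA of 10 tumours and single cells of 6 tumours were analysed from 2 tables of whole-number read counts per gene, deposited by the authors without normalization. The submitters' processing notes name Trim Galore (a read trimmer), STAR (an aligner) and featureCounts (a counter), and the builds hg38 and hg19, without versions or roles. The strand setting and the use of molecular identifiers are not given in the sources used here. Precision is therefore of reads, and intervals cover counting error only.

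The 10 genes, the related lists and the markers were chosen with earlier results of these data known. Named genes are the 10, every called gene of a list, the 3 genes most like each member counted in every tumour and in at least 60 thinned cells, and KMT5C, PEBP1 and rat Pebp1 as checks. Bulk counts were tested with edgeR 4.0.16 (R 4.3.3; filterByExpr, TMM, robust quasi-likelihood, p-values two-sided and Benjamini-Hochberg adjusted over all genes), and DESeq2 1.42.0 was an alternative. CPM are counts per 1000000 of the TMM-scaled library. Identifiers with no symbol (0.664% of counts) were kept. The labels name no separate cell populations within an arm, so p-values measure only the spread between tumours.

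Cells were assigned by the start of their names (arm) and the ending (experiment, with arbitrary numbers). A total of 1568 of 1569 cells with at least 1000 detected genes were used, and 0 cell names were shared. Counts were added up over the cells of a tumour and fitted with the experiment as a block, since the labels put 1 tumour of each arm in each sample. Deviations from the arm means correlated by 0.188, 0.0705 and 0.19 between tumours with the same ending and by -0.173 to 0.0348 between others. Thinning drew 20000 counts a cell without replacement (seed 1). Doublets were not called. LAPTM5, CHCHD2P2 and HIST1H2BK were chosen after their values were seen. Alternatives were other scaling, no filter, marker covariates, left-out tumours or cells, and other depths. The fits were also run on simulated counts with known changes in the better-counted genes, and the outcome is not given here.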

Additional observations from a re-analysis of the deposited data

Results flagged for a closer look

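Among 20 groups of 5 bulk tumours (10 genes in each of 2 arms), 2 held a tumour far from the others by Dixon's test at the 95% level, where chance gives about 1 in 20. Both were KMT5C tumour 809. CCL2 had 5.96 CPM there, against 2.52 to 3.13 CPM in the other 4 KMT5C tumours. IL1B had 1.48 CPM there, against 0.519 to 0.620 CPM in the others. Tumour 809 was the KMT5C tumour with the highest level of CSF3 and PTGS2 as well, and its library was the shallowest of the 10, at 37050750 counts. It also had the highest summed level of skeletal muscle markers (72.7 CPM), and the part of that in these values was not tested. Without it the log2 fold changes were larger, at -1.66 for CCL2 and -2.47 for IL1B, and the same 5 genes were called.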

How the results depend on the processing

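Of the 5 genes called in bulk, 5 were called with DESeq2 and with RLE factors, 4 (all but PTGS2) without a filter on low counts and with the leukocyte covariate, and 1 with the muscle covariate. Leaving out 1 bulk tumour at a time gave 4 to 5 called genes, with PTGS2 lost without KMT5C tumours 807, 816 or 820. The related lists held 6 called genes with DESeq2 and with no filter (TNFAIP3, PTGS1 and ZFP36L2 in addition), 0 with the muscle covariate and 2 to 6 with 1 bulk tumour left out, against 3. Over all genes tested, DESeq2 called 5.71% and the main edgeR fit called 2.96%. With the leukocyte covariate the related lists held 3, with TRAF1 called higher in place of CASP4. The 6 without CTRL tumour 813 included NFKBIZ and ZFP36L1 as higher. With the leukocyte covariate the uncalled estimates of IL1A (0.0061), CXCL8 (0.14) and IL6 (0.085) turned positive. Leaving out bulk tumours gave -0.30 to 0.063 for IL1A. In single cells 0 of the 7 genes were called under every alternative that tested them (LIF did not pass the filter after thinning before summing), left-out experiments included, and without the replicate block (0 called), where IL6 was at -0.35 and IL1B at -1.28. Leaving out 1 experiment gave -0.43 to 0.16 for CXCL1, -0.52 to 0.22 for CXCL2, -0.55 to 0.17 for CXCL8, -0.043 to 0.16 for PTGS2, -1.61 to -0.61 for IL1B, -2.005 to -0.67 for IL6 and 0.10 to 0.83 for LIF. Genes whose share of cells differed in 1 direction in all pairs numbered 0 after thinning to 20000 counts, 2 after thinning to 10000 (PTGS2 and LIF), 1 without thinning (PTGS2), 2 at a minimum of 3 counts (IL1B and IL6) and 1 without chip row 9 (LIF). With both a minimum of 3 counts and chip row 9 left out, the genes were IL1B and PTGS2. IL6 then had the RKIP tumour higher in 1 of 3 pairs. Pairs above the product of shares in all 6 tumours numbered 4, against 2 after thinning to 10000, 6 without thinning and 5 without row 9. The causes of these changes were not tested. The settings without chip row 9, and those of the lists other than DESeq2, the muscle covariate and the replicate block, were chosen after seeing the data. Counts of 13 to 111 per bulk library limit CSF3 and IL1A, and few positive cells limit IL1B, IL6 and LIF.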
